A study of Mus musculus with 42 samples.

Results

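The comparison concerns 12 of the 42 RNA libraries of a study of Tnrc6a in mouse embryonic stem cells. They are the input and the immunoprecipitate (IP) of cells labelled Trim71KO and of cells labelled Ago2KO in the second of its experiments, with 3 libraries in each of the 4 groups. All 12 were selected by genotype, fraction and experiment in the labels and not by any measured value. The question is which RNAs were recovered with Tnrc6a more, or less, when Trim71 rather than Ago2 was disrupted. The quantity tested was log2 IP over input of Trim71KO minus that of Ago2KO, called the association difference below. A positive value means that an RNA was recovered more per unit of input in Trim71KO, relative to the other RNAs of the same libraries. Libraries were scaled to each other, so the total amount of RNA recovered was not measured.

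All cells were embryonic stem cells of 129S6/SvEvTac background that carried, per the labels, a GFP_5xT71BS reporter and a stable FLAG-Cas9::T2A::Blasticidin transfection. Both knockouts also carried an HA-AVI tag on Tnrc6a, and they differed in being Trim71-/- or Ago2-/-. Cells labelled with neither the tag nor a knockout, called untagged below, gave another 3 input and 3 IP libraries as the reference for recovery without the tag. Per the labels the IP is RNA bound to anti-HA magnetic beads and the cells were grown in triplicate dishes with LIF on gelatin. Whether each knockout is 1 clone, and whether triplicates came from separate cultures, is not given in the sources used here, so p-values measure the spread between these libraries. Tagged cells with both genes intact did not enter this comparison. Each difference therefore contrasts the 2 knockouts and does not tell which of them departs from intact cells.

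Tnrc6a belongs to the GW182 family, the scaffold proteins of RNA silencing. An Argonaute protein such as Ago2, loaded with a microRNA, finds an mRNA by pairing with the microRNA seed and recruits a GW182 protein, which in turn brings the CCR4-NOT deadenylase. Trim71 (also called LIN-41) represses mRNAs whose hairpins it recognises. Both proteins act in embryonic stem cells, where the miR-290 family is the dominant group of microRNAs and let-7 is held back by Lin28a.

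Depth was similar in all 12 libraries, with 16782458 to 21026552 counts each. The table named 19866 genes, of which 19175 were tested, and the median standard error (SE) of the association difference was 0.17 on the log2 scale. Values per library are CPM, counts scaled to a library of 1000000 with TMM-adjusted library sizes. A gene was called at a Benjamini-Hochberg adjusted p under 0.05 in edgeR's quasi-likelihood test over all genes tested. Calls were tried again in 12 leave-one-out fits, each without a single library, and a gene named below as called kept its call there unless the text says otherwise.

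The targeted genes were examined first. Ago2 encodes the Argonaute protein removed in Ago2KO cells, and its input RNA stood at 295, 299 and 374 CPM in the 3 Trim71KO libraries and at 155, 160.0 and 164 CPM in the 3 Ago2KO libraries. The groups did not overlap, and RNA remained in Ago2KO. In the IP Ago2 stood at 889.9, 946 and 1011 CPM in Trim71KO and at 192, 201 and 167 CPM in Ago2KO, an association difference of 1.33 (SE 0.13, adjusted p 1.07e-06). For Trim71 the order was the reverse of what the label Trim71KO would give. Its input stood at 366, 386 and 373 CPM in Trim71KO and at 264, 262 and 252 CPM in Ago2KO, so RNA abundance is no check of that label, and Trim71KO means throughout the libraries that bear it. In the IP Trim71 stood at 433, 444 and 414 CPM in Trim71KO and 447, 396 and 340.3 CPM in Ago2KO, which overlapped, and the association difference was -0.40 (SE 0.11, adjusted p 0.0226), a call lost without Ago2KO input replicate 2 or 3 or Ago2KO IP replicate 2. Tnrc6a mRNA, which encodes the tagged protein, stood at 21751, 17803 and 13479 CPM in Trim71KO IP and 30307, 16433 and 14130 CPM in Ago2KO IP, against 109.7, 114 and 116 and 112, 118 and 114 CPM in the inputs. The IP values overlapped and the association difference was -0.18 (SE 0.28, adjusted p 0.775), or 0.23 without Ago2KO IP replicate 1.

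The IP libraries of Ago2KO did not resemble each other equally. Over 12825 genes with a mean log2 CPM of at least 2, the SD of log2 IP over mean input was 0.773, 0.755 and 0.769 in Trim71KO and 0.694, 0.538 and 0.529 in Ago2KO, against 0.312, 0.197 and 0.295 in untagged cells. The number of these genes at least 2-fold above input was 1670, 1676 and 1754 in Trim71KO, 1208, 775 and 749 in Ago2KO and 103, 28 and 59 in untagged cells. Ago2KO IP replicate 1 thus stood apart from replicates 2 and 3 and toward the Trim71KO libraries on both measures. It also held the highest share of Tnrc6a counts, 2.83%, where the other 5 knockout IP libraries held 1.22% to 1.92%. The spread of IP over input was narrower in every Ago2KO library than in every Trim71KO library, and its part in the association differences was not tested. The total counts of calls, and those of the gene lists where they changed, are given with and without Ago2KO IP replicate 1.

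**Figure D1:**
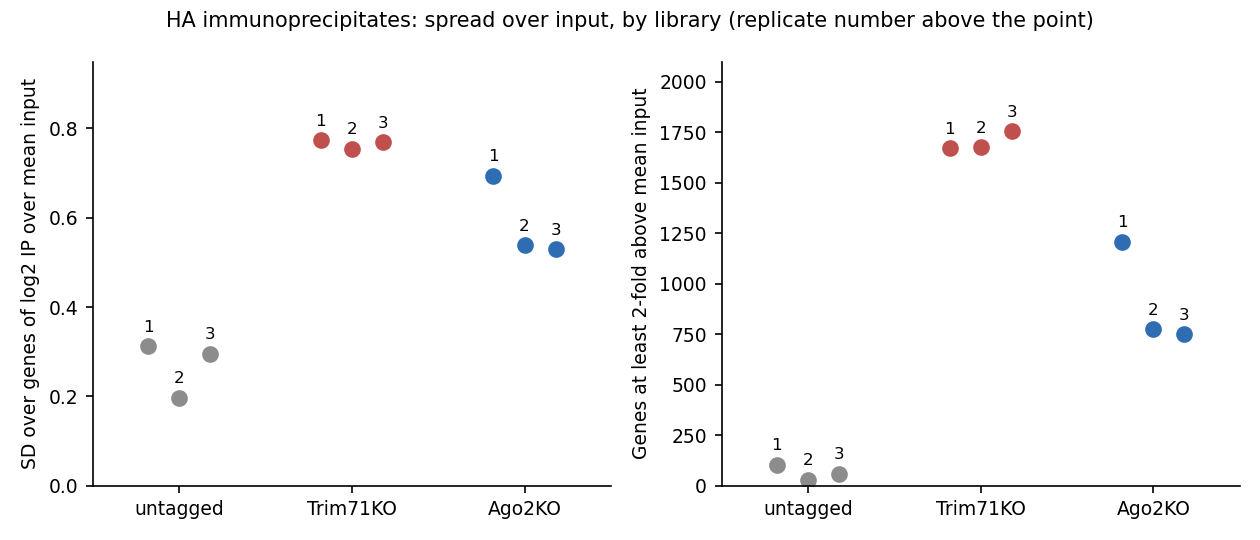
The left panel plots, for each HA immunoprecipitate library, the SD over 12825 genes of log2 IP over mean input, and the right panel the number of those genes at least 2-fold above mean input; numbers above the points are replicate numbers. Trim71KO libraries lie at 0.755 to 0.773 and Ago2KO libraries at 0.529 to 0.694, with Ago2KO replicate 1 highest, above untagged libraries at 0.197 to 0.312.

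Relative to the other RNAs of the same libraries, more RNAs were recovered better in Trim71KO than in Ago2KO. Of 19175 genes tested, 1845 (9.62%) were called higher in Trim71KO and 282 (1.47%) lower, together 2127 (11.1%). At least 2-fold were 257 of the higher and 38 of the lower calls. The median over all genes was 0.02. Without Ago2KO IP replicate 1 the counts were 2384 higher and 485 lower, and 459 genes were called at least 2-fold. Other libraries moved these counts too: without Trim71KO input replicate 2 the higher calls were 1219, and the lower calls were 577 without Trim71KO input replicate 3, 425 without Trim71KO IP replicate 1, 180 without Ago2KO input replicate 1, 141 and 160 without replicates 2 and 3, and 185 without Ago2KO IP replicate 2. The split depended on the fit, since 86.7% of calls were higher in the fit of the 12 libraries, 75.7% when all 8 groups of the experiment shared a fit (1768 higher, 566 lower) and 67.7% when libraries were scaled by library size alone (1370 higher, 654 lower). With a term for the replicate number within each fraction, 2157 genes were called higher and 391 lower. Genes of low count seldom passed: among the 12825 genes with a mean log2 CPM of at least 2, 1774 (13.8%) were called higher and 254 (1.98%) lower.

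An association difference can come from the IP, from the input or from both, and these were separated. Between the knockouts, 7163 genes (37.4%) differed in the IP, 4432 of them higher in Trim71KO, and 5289 (27.6%) differed in the input, 2659 of them higher. Of the 1845 genes with a higher association in Trim71KO, 1482 (80.3%) were also called higher in the IP itself, 324 were not called there and 39 were called lower. The input was called lower for 622 of the 1845. For 292 genes the input was lower and the IP was not called, so that the higher ratio came with less input RNA and no called difference in the IP. Of the 282 genes with a lower association, 170 (60.3%) were called lower in the IP, 100 were not called and 12 were called higher, and for 88 the input was higher with the IP not called. Without Ago2KO IP replicate 1, 2004 of 2384 higher calls (84.1%) and 295 of 485 lower calls (60.8%) had the same call in the IP.

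**Figure D2:**
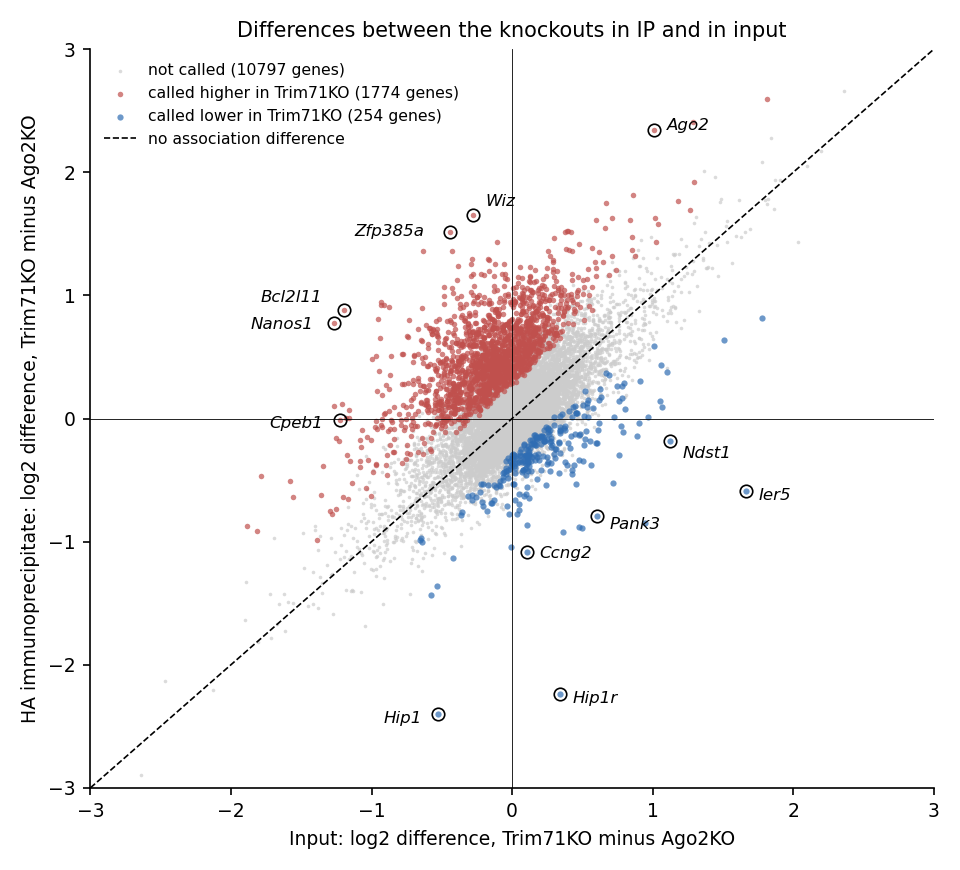
Each point is a gene with a mean log2 CPM of at least 2; the horizontal axis is the log2 difference of Trim71KO minus Ago2KO in input and the vertical axis the same difference in the HA immunoprecipitate, with genes called higher in red, called lower in blue and not called in grey. Distance from the dashed line is the association difference: Hip1r and Hip1 lie far below it through the IP, Ndst1 and Cpeb1 lie off it through the input, and Bcl2l11, Nanos1 and Ier5 have IP and input differences of opposite sign.

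The genes with the largest differences were named only where all 9 IP minus input values of one knockout lay above the 9 of the other, which 10.9% of all genes met with Trim71KO above and 3.27% with Trim71KO below. The 9 values combine each of 3 IP with each of 3 input libraries and are not 9 replicates. The RNAs that were recovered less in Trim71KO included a pair of related endocytic adaptors. Hip1r (huntingtin-interacting protein 1 related, which binds clathrin and actin) lies at chr5:123973602-124003215 of GRCm38. Its input stood at 39.5, 45.5 and 40.5 CPM in Trim71KO and 33.1, 33.9 and 32.3 CPM in Ago2KO, while its IP stood at 43.00, 47.3 and 49.7 CPM and 295, 198 and 169 CPM. Every Ago2KO IP library was above every Trim71KO IP library, and in Trim71KO the IP level was close to that of the input. The association difference was -2.58 (SE 0.20, adjusted p 1.55e-07), or -2.31 without Ago2KO IP replicate 1. The ratio of IP to input was 1.12-fold in Trim71KO, 6.67-fold in Ago2KO and 1.03-fold in untagged cells. Hip1, its paralogue, lies at chr5:135406496-135545323. Its IP stood at 45.8, 53.6 and 59.4 CPM in Trim71KO and 384, 261 and 196 CPM in Ago2KO, with inputs of 27.4, 25.3 and 35.6 and 43.2, 41.3 and 43.1 CPM. Neither fraction overlapped, and the difference was -1.87 (SE 0.25, adjusted p 4.28e-05), with an input difference of -0.53 (SE 0.18, adjusted p 0.0336).

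Other strong decreases combined less RNA in the IP with more in the input. Ier5, an immediate early gene at chr1:155096367-155099636, stood at 9.14, 10.6 and 8.06 CPM in Trim71KO input and 3.18, 2.41 and 3.21 CPM in Ago2KO input, but at 35.96, 38.7 and 43.4 and 82.8, 41.5 and 53.6 CPM in the IPs. The inputs were separated in one direction while the IPs overlapped slightly, and the association difference was -2.26 (SE 0.30, adjusted p 4.59e-05). St3gal4, a sialyltransferase, differed by -1.80 (SE 0.24, adjusted p 4.86e-05), with 13.8, 13.05 and 13.4 CPM in Trim71KO IP, no more than its input of 16.1, 14.2 and 15.1 CPM, and 32.2, 19.5 and 20.6 CPM in Ago2KO IP. Pank3, a pantothenate kinase of coenzyme A synthesis at chr11:35769495-35791285, stood at 189, 201 and 199.6 CPM in Trim71KO IP and 429, 295 and 298 CPM in Ago2KO IP, with inputs of 57.7, 48.6 and 65.6 and 37.4, 36.4 and 39.5 CPM. Both fractions were separated, in opposite directions, and the difference was -1.39 (SE 0.17, adjusted p 1.86e-05). Herpud1, a protein of endoplasmic-reticulum-associated degradation, differed by -1.38 and Pip5k1a, which makes the membrane lipid phosphatidylinositol 4,5-bisphosphate, by -1.35. Their IP differences were -0.89 and -0.88 and their input differences 0.50 and 0.47, all 4 called. Spty2d1, a histone chaperone, followed the same pattern at -1.24.

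Ccng2 and Zfp827 were recovered strongly in both knockouts and less in Trim71KO. Ccng2, the atypical cyclin G2, stood at 372, 379.6 and 445 CPM in Trim71KO IP and 1103, 665 and 771 CPM in Ago2KO IP, against inputs of 47.4, 48.5 and 51.8 and 38.2, 43.2 and 55.7 CPM that overlapped. Its difference was -1.19 (SE 0.21, adjusted p 0.00065). Zfp827, a zinc finger protein, stood at 153, 146 and 123 and 365, 238 and 197 CPM in the IPs, a difference of -1.29 (SE 0.23, adjusted p 0.000726). Both therefore stayed enriched in Trim71KO, 8.10-fold and 7.08-fold over input.

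For some genes the lower association rested on the input. Ndst1, which sulfates heparan sulfate chains, stood at 83.2, 89.3 and 88.8 CPM in Trim71KO IP and 132, 90.4 and 74.9 CPM in Ago2KO IP, which overlapped (IP difference -0.19, SE 0.13, adjusted p 0.286). Its input stood at 56.6, 56.2 and 57.1 CPM and 28.4, 24.8 and 25.03 CPM, which did not, and the association difference was -1.31 (SE 0.19, adjusted p 0.000116). Nfib, a transcription factor (-1.03), Tnfsf9, the ligand of the 4-1BB receptor (-1.06), Mllt1, a chromatin reader of the elongation machinery (-0.97), and Zfp317 (-0.95) had the same pattern. Their IP differences lay between -0.29 and 0.09, none called, and their input differences between 0.76 and 1.06, all called.

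Among the named RNAs recovered better in Trim71KO the largest differences were those of Bcl2l11 and Nanos1. Bcl2l11 encodes Bim, a pro-apoptotic member of the Bcl2 family, and lies at chr2:128126038-128162547. It stood at 254, 227 and 230.3 CPM in Trim71KO IP and 161, 121 and 104 CPM in Ago2KO IP, while the inputs were 20.97, 18.5 and 18.04 and 43.6, 42.7 and 45.6 CPM. Trim71KO was higher in every IP library and lower in every input library, and the difference was 2.08 (SE 0.17, adjusted p 1.78e-07). The RNA was 12.4-fold enriched in Trim71KO and 2.93-fold in Ago2KO. Nanos1, an RNA-binding repressor, lies at chr19:60755987-60759914. It stood at 39.5, 36.1 and 35.6 and 24.7, 20.1 and 20.03 CPM in the IPs and 5.13, 4.37 and 3.68 and 10.7, 9.90 and 11.2 CPM in the inputs, with the same opposite separation and a difference of 2.04 (SE 0.17, adjusted p 2.46e-07).

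For Zfp385a and Wiz the IP carried most of the difference. Zfp385a, a zinc finger protein that binds double-stranded RNA, stood at 879, 798 and 813 CPM in Trim71KO IP and 383, 250.4 and 235 CPM in Ago2KO IP, and at 45.7, 43.9 and 46.1 and 60.1, 62.3 and 61.99 CPM in the inputs. Its difference was 1.96 (SE 0.18, adjusted p 6.76e-07). Wiz, a partner of the histone methyltransferases G9a and GLP at chr17:32354047-32389501, stood at 490.2, 496 and 537 and 180.4, 151 and 152 CPM in the IPs and differed by 1.93 (SE 0.11, adjusted p 2.94e-09). Recovery over input was 7.08-fold in Trim71KO and 1.85-fold in Ago2KO. Neither gene overlapped between the knockouts in the IP. Fbxo28, the substrate-binding subunit of a ubiquitin ligase (1.62), Zdhhc9, a palmitoyltransferase (1.79), and the membrane protein gene Tmem50b (1.99) were likewise higher mainly in the IP, by 1.24, 1.36 and 1.36.

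In Nt5dc2 and Spryd3 the IP and the input contributed about equally. Nt5dc2 stood at 272, 291 and 319 and 154, 152 and 159.8 CPM in the IPs and at 65.8, 65.8 and 62.6 and 120.3, 122 and 127 CPM in the inputs, so that recovery over input was 4.54-fold in Trim71KO and 1.26-fold in Ago2KO. Its association difference was 1.85 (SE 0.10, adjusted p 1.65e-09). Spryd3 differed by 1.88 (SE 0.13, adjusted p 5.45e-08), Mfsd9, a putative transporter, by 1.79 (SE 0.18, adjusted p 2.23e-06), and the unnamed genes ENSMUSG00000103270 and ENSMUSG00000113209 by 1.84 and 1.76.

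**Figure D3:**
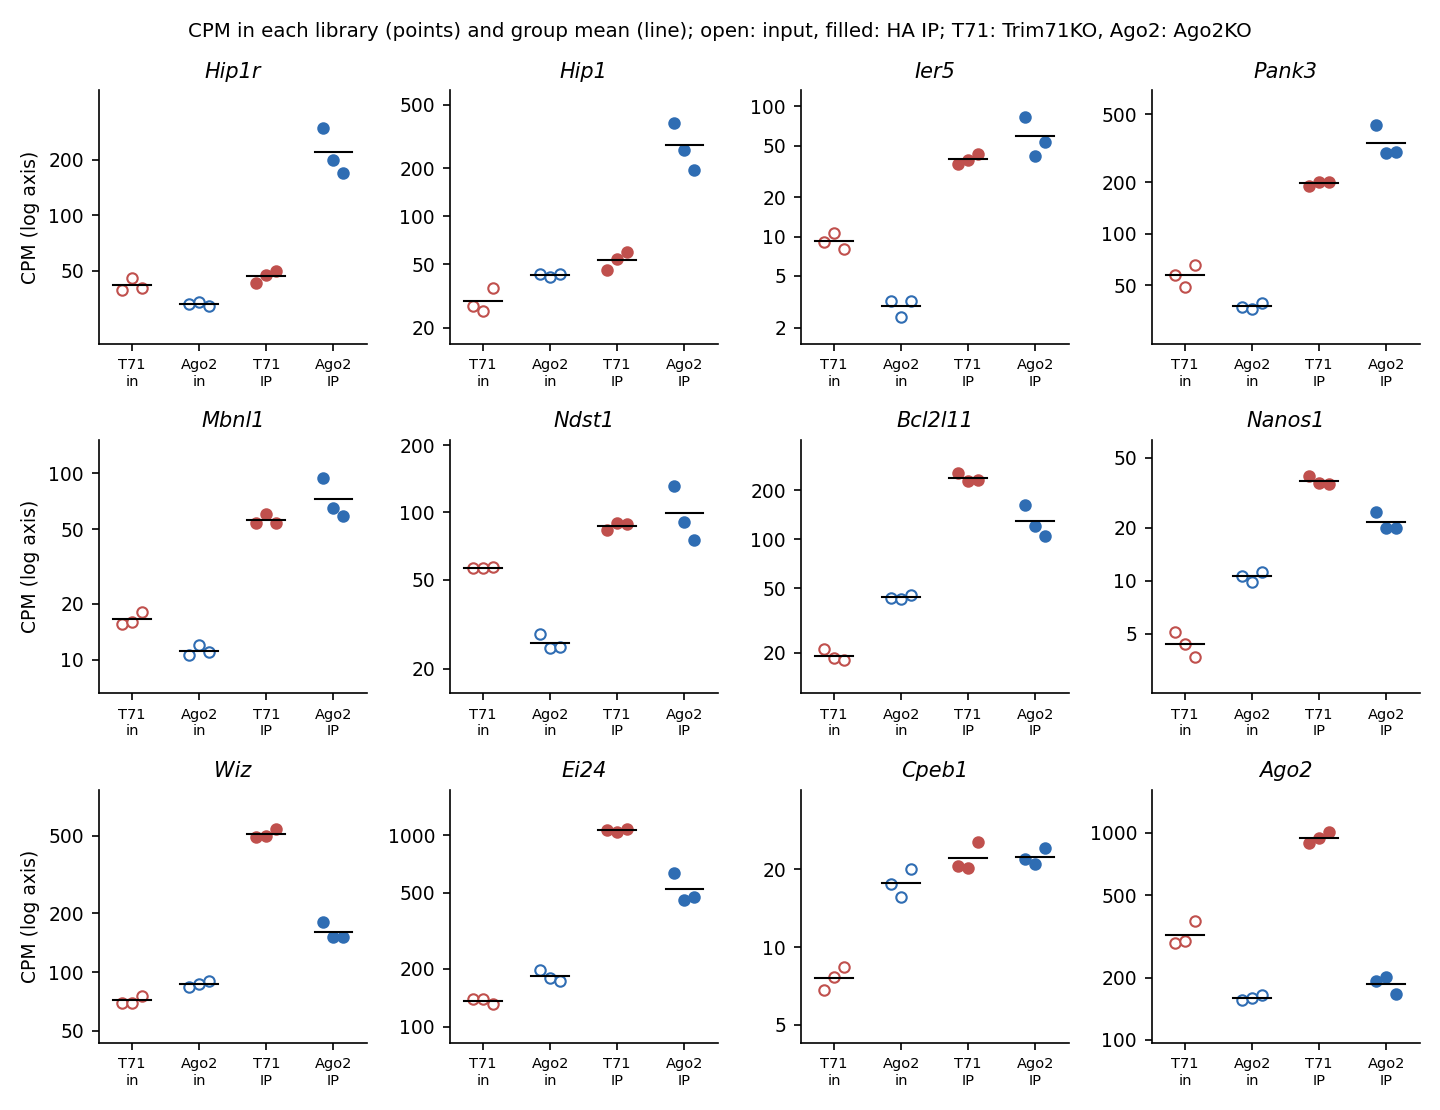
CPM of 12 genes in each library on a log axis, with open points for input, filled points for the HA immunoprecipitate, red for Trim71KO, blue for Ago2KO and a line at each group mean. Hip1r and Hip1 are higher in every Ago2KO IP library, Bcl2l11, Nanos1, Wiz, Ei24 and Ago2 in every Trim71KO IP library, while Ndst1 and Cpeb1 differ in the inputs and overlap in the IPs.

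A further set had higher association without a called difference in the IP. Cpeb1, which binds cytoplasmic polyadenylation elements, stood at 20.7, 20.3 and 25.6 CPM in Trim71KO IP and 21.97, 20.98 and 24.2 CPM in Ago2KO IP, which overlapped. Its input stood at 6.80, 7.68 and 8.36 CPM and 17.6, 15.7 and 20.01 CPM, which did not, and the association difference was 1.21 (SE 0.17, adjusted p 6.26e-05). Wnk3, a kinase that controls chloride transport, differed by 1.33 with IP levels of 49.5, 48.8 and 50.6 and 41.9, 51.2 and 43.8 CPM. Fam163b (1.37), the glycine transporter gene Slc6a9 (1.23) and the semaphorin gene Sema7a (1.22) completed this set. Their input differences ran from -0.87 to -1.27 on the log2 scale, all called, and their IP differences from 0.07 to 0.35, none called.

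Gene lists were chosen with earlier results of these data known, so their shares of calls are descriptions. The shares of all genes also include genes of low count or not recovered above untagged cells. Of the 19175 genes tested, 4472 were called above untagged cells in Trim71KO, and 1766 of these had a higher association there. For Ago2KO these counts were 2924 and 1082. No list was compared with such genes. With library size alone the median of each of the 27 lists was lower than in the fit of the 12 libraries. That of the miR-290 list, for example, moved from 0.52 to 0.44. A list median near 0 can turn sign with such a common shift. RNAs reported as targets of Trim71 lay on both sides of 0. Of 8 tested genes of the list, 1 was called lower and 0 higher, beside 9.62% higher and 1.47% lower of all genes, with 4 above and 4 below 0 and a median of 0.01, beside 0.02 over all genes. With library size alone and with DESeq2 2 were called lower, and without Ago2KO IP replicate 1 1 was called higher and 1 lower. The median ran from -0.26 to 0.21 over the alternative fits and turned sign in 13 of them. The call was Mbnl1, a splicing regulator at chr3:60472559-60629750. It stood at 54.1, 60.6 and 54.1 CPM in Trim71KO IP and 94.4, 65.2 and 59.2 CPM in Ago2KO IP, which overlapped slightly, and at 15.5, 15.9 and 18.04 and 10.6, 11.95 and 10.96 CPM in the inputs, which did not. The difference was -0.94 (SE 0.19, adjusted p 0.0027), or -0.71 without Ago2KO IP replicate 1. Among the other members, Plxnb2, a semaphorin receptor, stood at 146, 143 and 152 CPM in Trim71KO input and 70.5, 62.7 and 58.9 CPM in Ago2KO input, without overlap, and its association difference was -0.47 (SE 0.18, adjusted p 0.105). It was called lower with library size alone (adjusted p 0.0419), with DESeq2 and without Trim71KO IP replicate 3 (edgeR adjusted p 0.00204). Inhbb, an activin subunit, stood at 338, 339.8 and 319 and 219, 203 and 194 CPM in the inputs and was recovered 4.19-fold and 4.99-fold over them. Egr1, an immediate early transcription factor, and Nab2, which represses its activity, were called lower in Trim71KO input, with differences of -1.29 and -0.72, and not called in association. Cdkn1a and Rbl2, brakes of the cell cycle that are also reported microRNA targets, were recovered strongly in both knockouts. Cdkn1a was 25.9-fold over input in Trim71KO and 20.3-fold in Ago2KO, a difference of 0.35 (SE 0.19, adjusted p 0.282) that was 0.61 and called without Ago2KO IP replicate 1 (adjusted p 0.000336), and Rbl2 14.96-fold and 16.3-fold, a difference of -0.12 (SE 0.23, adjusted p 0.817). Rbl1, the paralogue of Rbl2, differed by 0.15 (SE 0.13, adjusted p 0.554).

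Reported microRNA targets were described by family. The mature microRNAs are printed from RefSeq (GRCm38.p6), 5′ to 3′, with the seed in capitals (bases 2 to 8), because the seeds define the families and show that those of miR-290 and miR-17 are the same run of letters offset by 1 base.
mmu-miR-291a-3p: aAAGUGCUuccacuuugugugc
mmu-miR-294-3p: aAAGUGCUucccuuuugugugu
mmu-miR-295-3p: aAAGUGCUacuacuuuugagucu
mmu-miR-17-5p: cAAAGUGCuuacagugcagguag
mmu-miR-20a-5p: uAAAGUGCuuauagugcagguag
mmu-miR-92a-3p: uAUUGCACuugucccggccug
mmu-let-7a-5p: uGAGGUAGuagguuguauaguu
mmu-let-7g-5p: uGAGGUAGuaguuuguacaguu
The first 3 come from the miR-290 cluster on chromosome 7 (chr7:3218968-3218989 for miR-291a-3p) and share the seed AAGUGCU. The next 2 come from the miR-17-92 cluster on chromosome 14 and share AAAGUGC, miR-92a-3p has another seed, and the 2 let-7 members share GAGGUAG. The microRNAs themselves were not measured, and seed matches in the target mRNAs were not analysed here.

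Targets of the miR-290 family lay mostly above 0. Of 10 tested members 5 were called higher (50%) and 0 lower, and 9 lay above 0 with a median of 0.52. These shares were 9.62% and 1.47% of all genes, and 13.8% and 1.98% of genes with a mean log2 CPM of at least 2. The list members called are Ei24, Casp2, Rhoc, Akt1 and Fbxl5. Ei24, a p53-induced membrane protein of the endoplasmic reticulum at chr9:36779153-36797334, stood at 1065, 1040 and 1086 CPM in Trim71KO IP and 635, 459.8 and 475 CPM in Ago2KO IP. Its inputs were 140.0, 139 and 132 and 198, 179 and 172 CPM, neither fraction overlapped, and the difference was 1.44 (SE 0.13, adjusted p 9.00e-07). Casp2, a caspase that miR-290 microRNAs are reported to repress, stood at 454, 448 and 426 and 311, 195 and 182 CPM in the IPs, with inputs of 27.1, 27.98 and 27.3 and 25.1, 29.2 and 26.7 CPM that overlapped. Its difference was 0.93 (SE 0.20, adjusted p 0.00357) and its highest Ago2KO IP value was that of replicate 1. Rhoc differed by 0.73 (SE 0.12, adjusted p 0.000526) and was separated in the IP. Akt1, a kinase of growth factor signalling, differed by 0.66 (SE 0.13, adjusted p 0.00142), with IP values of 81.7, 78.1 and 72.4 and 80.8, 63.4 and 67.6 CPM that overlapped and lower input. Fbxl5, which senses iron, differed by 0.45 (SE 0.11, adjusted p 0.00869), a call lost without Trim71KO input replicate 2. Wee1, the kinase that holds back mitosis, was recovered 6.32-fold in Trim71KO and 5.20-fold in Ago2KO and was not called (0.28, SE 0.13, adjusted p 0.204), but was called without Ago2KO IP replicate 1 at 0.44 (adjusted p 0.00119). The median recovery over input of the list was 2.78 in Trim71KO and 2.31 in Ago2KO on the log2 scale, against 0.0054 in untagged cells. Without Ago2KO IP replicate 1 the list held 8 higher calls and a median of 0.69.

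Calls in the miR-17-92 and let-7 lists are read beside the same 9.62% higher and 1.47% lower of all genes. Of 14 reported miR-17-92 targets 5 were called higher and 0 lower, with a median of 0.41. Beside Bcl2l11 these were Ccnd1, cyclin D1 (0.80), Limk1, a kinase of the actin cytoskeleton (0.74), E2f1, a cell-cycle transcription factor (0.66), and Stat3, the LIF-activated transcription factor (0.47). The Stat3 call was lost with library size alone and without Trim71KO input replicate 1 or 2 or Ago2KO input replicate 2. Without Ago2KO IP replicate 1 the list held 10 higher calls. Of 23 reported let-7 targets 11 were called higher and 1, Trim71 itself, lower, with a median of 0.19. Trim71 is, per the labels, the gene disrupted in Trim71KO, so its value compares a disrupted with an intact gene. The let-7 list held 12 higher calls and 1 lower without Ago2KO IP replicate 1, with a median of 0.42, and 8 and 2 with library size alone. E2f5, another E2F factor, was the most changed and stood at 152, 141 and 140.0 CPM in Trim71KO IP and 98.2, 77.5 and 79.3 CPM in Ago2KO IP, without overlap and with a difference of 1.38 (SE 0.13, adjusted p 8.73e-07). Tgfbr1, a TGF-beta receptor (0.84), Ccnd2, cyclin D2 (0.77), Lin28a, the RNA-binding protein that blocks let-7 maturation (0.70), Mycn (0.60) and Igf2bp1, which stabilises mRNAs (0.52), were also called higher. The calls of Arid3a, Arid3b and Cdc25a in this list were lost in 9, 3 and 10 of the 12 leave-one-out fits and with library size alone, and those of Arid3a and Cdc25a also without the filter on low counts. The lists are not separate counts, since Cdkn1a, Rbl2 and Tgfbr2 are in the miR-290 and miR-17-92 lists and Ccnd1 in the miR-17-92 and let-7 lists.

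mRNAs of the silencing machinery were next. In the GW182 and Argonaute family Ago2, the gene disrupted in Ago2KO, was the 1 call among 7 genes tested (14.3%), beside 11.1% of all genes. Without Ago2KO IP replicate 1 there were 3 calls, with Ago1 at 0.44 (adjusted p 0.000996) and Tnrc6c at 0.31 (adjusted p 0.0481). Ago1, a second Argonaute, stood at 472, 490.1 and 454 CPM in Trim71KO IP and 551, 415 and 388 CPM in Ago2KO IP, which overlapped, and differed by 0.27 (SE 0.13, adjusted p 0.242). Ago3 differed by 0.30 (SE 0.16, adjusted p 0.297). Ago4, at 1.12, 1.31 and 1.26 CPM in Trim71KO IP and 3.04, 2.18 and 3.82 CPM in Ago2KO IP, was separated in the IP but scarce in both inputs, and its adjusted p was 0.151. The other GW182 genes Tnrc6b and Tnrc6c differed by -0.03 (SE 0.12, adjusted p 0.921) and 0.23 (SE 0.11, adjusted p 0.227). Input levels of Ago1, Ago3, Tnrc6b and Tnrc6c were not called between the knockouts. Of 14 microRNA biogenesis genes, which include those of Drosha, Dgcr8 and Dicer processing, Lin28a was the 1 call (7.14%, beside 11.1% of all genes). The list's median was 0.04, or -0.05 with library size alone, where the medians of all lists were lower. The list also held 1 lower call without Ago2KO IP replicate 1. Lin28a stood at 700.2, 755 and 790.1 and 408, 385 and 362 CPM in the IPs without overlap.

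Of 32 genes of deadenylation, decapping and P-bodies, 9 were called higher and 0 lower, beside 9.62% and 1.47% of all genes, with a median of 0.09. The counts were 11 and 0 and the median 0.17 without Ago2KO IP replicate 1. They held 3 subunits of CCR4-NOT, namely Cnot6l (0.73) and Cnot7 (0.63), which are deadenylases, and Cnot9 (0.46), the subunit that binds GW182 proteins. Parn, a further deadenylase (0.60), the decapping genes Dcp2 (0.56), Dcp1a (0.48) and Dcp1b (0.71), and Lsm1 (0.74) and Lsm14b (0.71) were the others. Dcp2, the decapping enzyme, stood at 530.2, 510.1 and 472 CPM in Trim71KO IP and 291, 233 and 219 CPM in Ago2KO IP, and was separated in the input too (151, 152 and 166 and 117, 112 and 109.7 CPM). The call of Dcp1a was lost without Trim71KO input replicate 1 or 2 and that of Dcp1b in 8 of the 12 leave-one-out fits.

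In the fit of all 12 libraries RNA-binding repressors held the highest list median after the miR-290 and miR-17-92 targets. Of 24 such genes 9 were called higher and 2, Mbnl1 and the disrupted gene Trim71, lower, beside 9.62% and 1.47% of all genes, with a median of 0.33. Here 11 were higher and 2 lower without Ago2KO IP replicate 1, and the median of 0.37 was then below the 0.42 of the let-7 list. After Nanos1 and Cpeb1 came the 3 genes of the Zfp36 family, which bind AU-rich elements and promote decay. Zfp36 stood at 151, 159.7 and 207 CPM in Trim71KO IP and 104, 70.04 and 72.2 CPM in Ago2KO IP (1.21, SE 0.20, adjusted p 0.000384), and Zfp36l2 at 509.6, 488 and 514 and 223, 155 and 140.1 CPM (0.88, SE 0.16, adjusted p 0.00114), both without overlap. Zfp36l1 differed by 0.70. Cpeb3, a relative of Cpeb1, differed through the IP rather than the input, with IP levels of 49.6, 50.1 and 51.96 and 23.3, 21.9 and 19.6 CPM that were separated and an input that was not called (0.98, SE 0.15, adjusted p 0.000217). The calls of Trim3 and Msi1 were lost in 11 and 7 of the 12 leave-one-out fits, with library size alone and without the filter on low counts, that of Trim3 also with RLE factors, and that of Trim71 as given above.

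In the Bcl2 family Bcl2l11 was the 1 call among 17 genes tested (5.88%), beside 11.1% of all genes. The other 16 lay between -0.27 (Bik) and 0.41 (Hrk) and none was called in the fit of all 12 libraries, including the other BH3-only genes Bbc3 (-0.08), Pmaip1 (-0.17) and Bmf (0.38), the effectors Bax (-0.19) and Bak1 (0.07), and the survival genes Mcl1 (0.15) and Bcl2l1 (0.03). The list's median was 0.01, or -0.08 with library size alone, where the medians of all lists were lower. Bmf was called with all 8 groups in the fit and without Ago2KO IP replicate 1 at 0.51 (adjusted p 0.0015). Without Trim71KO input replicate 3 the list held 2 lower calls, among them Bax (edgeR adjusted p 0.045). Mcl1 was nonetheless recovered above input in both knockouts, 2.62-fold and 2.37-fold.

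Of 25 endocytic clathrin adaptors tested, Hip1r and Hip1 were called lower, 4 were called higher and 19 were not called, beside 1.47% lower and 9.62% higher of all genes, with a median of 0.09. The 4 are Epn2 (0.92) and Epn1 (0.80), the epsins that bend membranes, Necap1 (0.88), which binds the AP2 complex, and Fcho2 (0.53), which starts clathrin pits and whose call was lost without Trim71KO input replicate 2. Epn2 stood at 226, 226 and 231 CPM in Trim71KO IP and 153, 119 and 123 CPM in Ago2KO IP without overlap, with inputs of 63.8, 59.8 and 68.98 and 66.3, 72.6 and 71.3 CPM that overlapped. The AP2 subunit genes Ap2a1, Ap2a2, Ap2b1, Ap2m1 and Ap2s1 lay between -0.29 and 0.17 and were not called, except Ap2s1 without Trim71KO input replicate 3 (edgeR adjusted p 0.0366). Cltb, clathrin light chain B, had the largest input difference of the list, 119, 136 and 119 CPM in Trim71KO and 46.9, 45.1 and 43.8 CPM in Ago2KO, and followed it in the IP with 97.5, 101 and 90.3 and 39.8, 42.8 and 46.5 CPM, an association difference of -0.30 (SE 0.11, adjusted p 0.0822). Cltb was called lower in 4 of 7 other settings (adjusted p 0.0327 with library size alone) and without Trim71KO input replicate 3 or Ago2KO IP replicate 1.

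**Figure D4:**
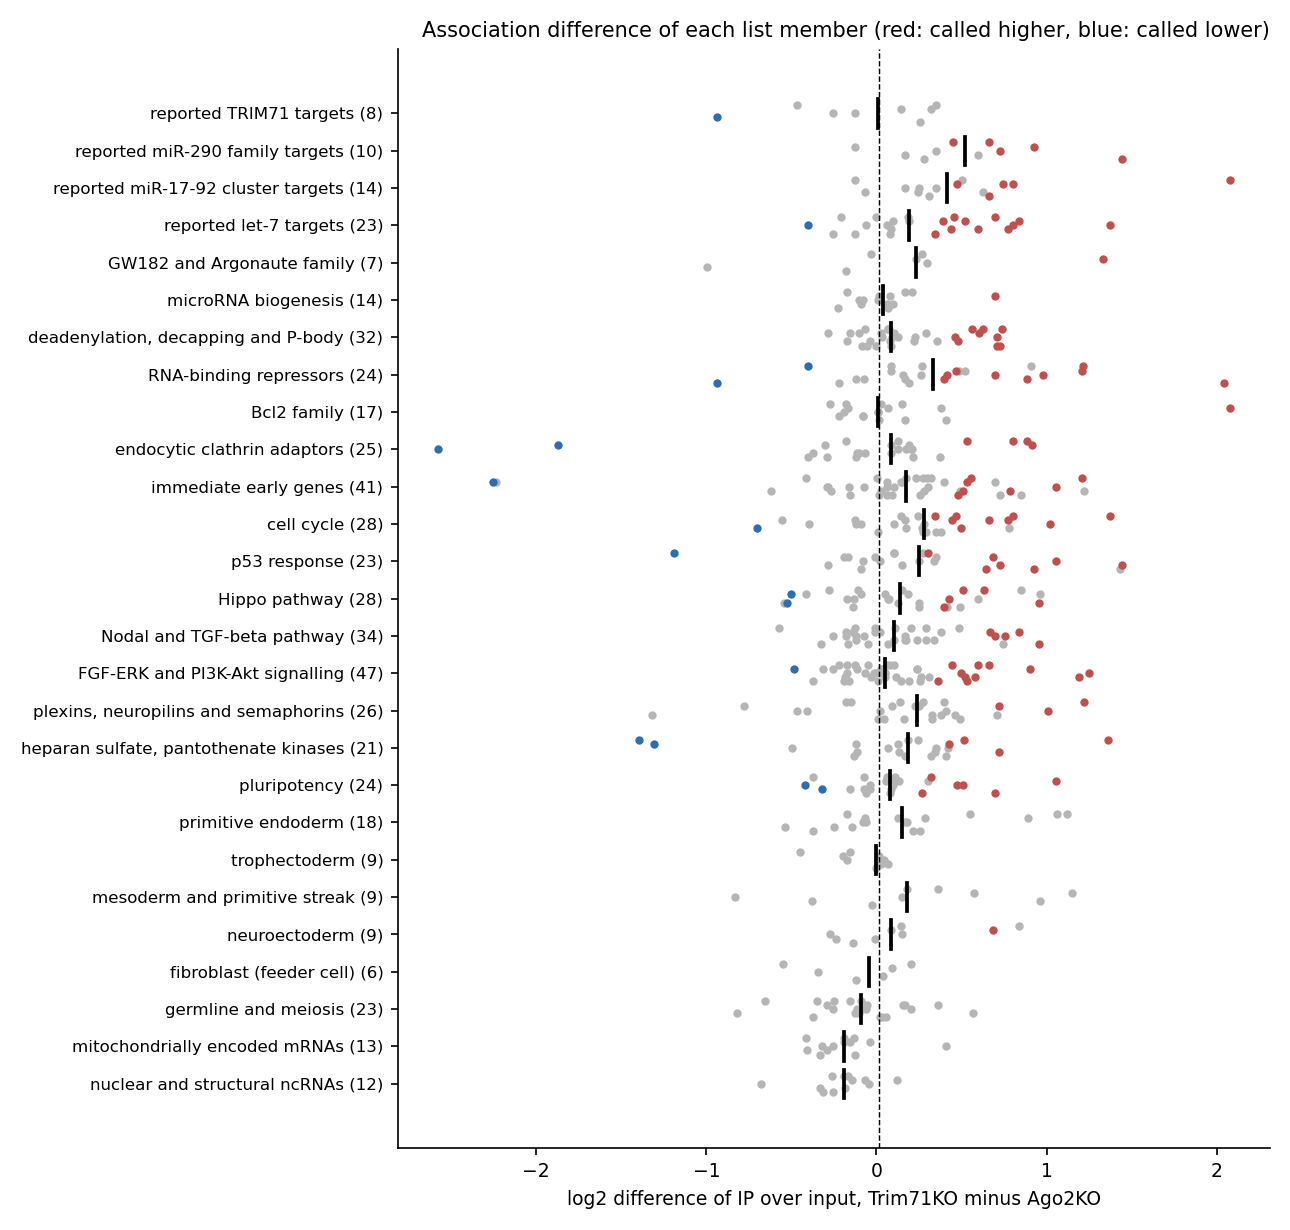
Association difference (log2 IP over input in Trim71KO minus Ago2KO) of each tested member of 27 gene lists, with the number tested in brackets; red points were called higher in Trim71KO, blue lower and grey were not called, the black bar is the list's median and the dashed line the median of all genes, 0.02. Hip1r and Hip1 lie to the left and Bcl2l11 and Nanos1 to the right of the other members of the clathrin, Bcl2 and RNA-binding repressor lists, and the miR-290 list has the highest median, 0.52.

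The cell-cycle, p53 response and immediate early lists were read beside the 9.62% of all genes called higher and 1.47% lower. Of 28 cell-cycle genes 9 were called higher and 1 lower (median 0.28), or 13 and 2 without Ago2KO IP replicate 1 and 6 and 0 without Trim71KO input replicate 1. Ccnd3, cyclin D3, stood at 1306, 1267 and 1363 CPM in Trim71KO IP and 927, 746 and 727 CPM in Ago2KO IP (1.02, SE 0.12, adjusted p 7.16e-06), so that all 3 D-type cyclins were called. Cdkn1b, a cyclin-dependent kinase inhibitor, differed by 0.47, a call lost without Trim71KO input replicate 1. E2f3 was the lower call (-0.70, SE 0.21, adjusted p 0.0331), with IP values that overlapped and a higher input in Trim71KO, and its call was lost with DESeq2 and in 6 of the 12 leave-one-out fits. Of 23 p53 response genes 7 were called higher and 1, Ccng2, lower (median 0.25), or 10 and 1 without Ago2KO IP replicate 1. After Ei24 the largest higher call was that of Mdm4, the p53 inhibitor, at 1398, 1292 and 1410 and 832, 813 and 788 CPM in the IPs (1.06, SE 0.10, adjusted p 1.55e-06). Ccng1, cyclin G1, moved opposite to its paralogue Ccng2, by 0.93 (SE 0.10, adjusted p 4.34e-06), with an input difference of -0.42. The call of Trp53 itself (0.31) was lost in 8 of the 12 leave-one-out fits and in 3 of 7 other settings. Of 41 immediate early genes 7 were called higher and 1, Ier5, lower (median 0.17), or 12 and 1 with a median of 0.33 without Ago2KO IP replicate 1. The higher calls included the transcription factors Klf2 (1.06), Klf4 (0.51), Klf10 (0.53) and Nr4a1 (0.56). Klf2 stood at 3052, 3086 and 3187 CPM in Trim71KO IP and 2264, 1574 and 1726 CPM in Ago2KO IP.

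For the signalling and enzyme lists the same shares of all genes, 9.62% higher and 1.47% lower, are the background. Of 47 FGF-ERK and PI3K-Akt genes 11 were called higher and 1 lower (median 0.05, or -0.04 with library size alone), and 14 and 1 with a median of 0.14 without Ago2KO IP replicate 1. Sos1, which activates Ras, stood at 235, 251 and 271 CPM in Trim71KO IP and 148, 138 and 139 CPM in Ago2KO IP (1.25, SE 0.10, adjusted p 1.64e-07). Phlpp2, a phosphatase acting on Akt (1.19), Akt2 (0.90) and Foxo1 (0.53) were also called. Pik3r1, a regulatory subunit of PI3K, was lower (-0.49, SE 0.12, adjusted p 0.0138) at IP levels of 19.03, 21.2 and 19.5 and 19.8, 20.6 and 18.4 CPM that overlapped. Of 34 Nodal and TGF-beta genes 5 were called higher and 0 lower (median 0.10, or 0.20 with 6 higher calls without Ago2KO IP replicate 1), namely Tgfbr1, the signal transducers Smad2 (0.96) and Smad5 (0.69), and the repressors Ski (0.66) and Skil (0.75). Of 28 Hippo pathway genes 5 were called higher, among them Vgll4, an antagonist of the TEAD factors (0.96), and 2 lower, the kinase genes Taok1 (-0.50) and Taok3 (-0.53). The Taok3 call was lost in 8 of the 12 leave-one-out fits, and the list's median was 0.14. The Hippo counts were 3 higher and 5 lower with library size alone, 5 and 5 with DESeq2, 8 and 2 without Ago2KO IP replicate 1, 2 and 2 without Trim71KO input replicate 2, and ran from 2 to 8 higher and from 1 to 5 lower over all fits. Of 26 plexins, neuropilins and semaphorins 3 were called higher (4 without Ago2KO IP replicate 1), Sema7a, Plxna1 (1.01) and Sema4c (0.72), the last lost in 8 of the 12 leave-one-out fits and with library size alone. Among 21 heparan sulfate and pantothenate kinase genes, Pank3 and Ndst1 were lower while Glce, the epimerase of heparan sulfate (1.36, SE 0.16, adjusted p 9.59e-06), Pank1 (0.72), Xylt2 (0.52) and Hs2st1 (0.43) were higher, the last lost in 7 of the 12 leave-one-out fits. In this list 5 were higher and 2 lower without Ago2KO IP replicate 1, and the median moved from 0.19 to 0.34. Pank1 and Pank3, which encode enzymes of the same step, thus differed in opposite directions, Pank1 with an input difference of -0.71 and Pank3 of 0.60.

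The labelled cell type was checked against its markers. The summed input CPM of 24 pluripotency markers was 13019 to 13297 in Trim71KO and 12337 to 12471 in Ago2KO. The defining markers were thus present in both knockouts, and their part in the association differences was not tested. Primitive endoderm markers summed to 649.6 to 701 and 658 to 778 CPM over 18 tested genes, trophectoderm to 167 to 182 and 197 to 214 over 9, neuroectoderm to 223 to 255 and 204 to 209.6 over 9, and fibroblast markers to 336 to 344 and 347 to 369.7 over 6. Mesoderm markers summed to 8.57 to 9.34 CPM in Trim71KO and 15.3 to 18.5 in Ago2KO over 9. Over all genes 9.62% were called higher in association and 1.47% lower, the background for the lists in this paragraph. In association, the primitive endoderm, trophectoderm, mesoderm, fibroblast and germline lists held 0 calls. Of 14 listed genes each, 9 trophectoderm, 9 mesoderm and 6 fibroblast genes were tested. Genes of low count seldom passed, so 0 calls in a scarce list such as mesoderm do not show equal association. The neuroectoderm list held 1 call, Sox1 (0.69, SE 0.15, adjusted p 0.00564), for which the IP was lower in Trim71KO and the input lower still. The germline list held 1 lower call without Trim71KO IP replicate 3. Of the pluripotency markers 6 were called higher and 2 lower (median 0.08), or 3 and 2 with library size alone (median -0.0036) and 4 and 1 without Trim71KO input replicate 2. Nr5a2, a nuclear receptor (-0.42, SE 0.10, adjusted p 0.00892), and Dppa5a, an RNA-binding protein gene (-0.32, SE 0.10, adjusted p 0.0481), were the lower calls, and that of Dppa5a was lost in 8 of the 12 leave-one-out fits. Of the higher calls in this list, those of Esrrb and Sall4 were lost in 9 and 7 of them and in 3 of 7 other settings each. Mitochondrially encoded mRNAs, which stay inside mitochondria, held 0 calls among 13, with 12 below 0 and a median of -0.19, and 1 lower call without Ago2KO IP replicate 1. They made up 0.767% to 0.910% of Trim71KO IP counts and 0.749% to 0.957% of Ago2KO IP counts, below the inputs of 1.52% to 2.01% and 1.26% to 1.59%. Abundant nuclear and structural non-coding RNAs held 0 calls among 12, with 11 below 0 and a median of -0.19, and 3 lower calls without Ago2KO IP replicate 1.

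Features that the test did not use were described for the genes called. Genes called higher had a median annotated length of 5148 bases, those called lower 3170 and all genes tested 3432. Of those with a RefSeq entry, 1718 of 1748 called higher (98.3%) and 218 of 247 called lower (88.3%) were protein-coding, beside 14162 of 15868 (89.2%) of all genes tested. Symbols beginning with Zfp, a prefix of zinc finger genes, made up 2.17% of the genes called higher, 8.16% (23 of 282) of those called lower and 2.01% of all genes tested. Mean log2 CPM had a median of 5.68 in genes called higher, 5.48 in genes called lower and 3.70 over all genes tested. The part of abundance in these features was not tested. Both classes had little recovery without the tag, with a median log2 ratio of IP to input of -0.04 and -0.01 in untagged cells. In genes called higher the median ratio was 1.09 in Trim71KO and 0.40 in Ago2KO on the log2 scale. In genes called lower it was -0.46 in Trim71KO and 0.05 in Ago2KO. Against untagged cells, 7662 of 19538 genes (39.2%) were called in Trim71KO and 4491 (23.0%) in Ago2KO, of which 4475 (22.9%) and 2927 (15.0%) were higher than in untagged cells. Of the 1845 genes called higher between the knockouts, 1766 lay above untagged cells in Trim71KO and 1082 in Ago2KO. Of the 282 called lower, 44 lay above them in Trim71KO and 97 in Ago2KO. These counts use the same knockout libraries as the association difference and are given as a description. They also depend on the untagged libraries. With a library left out, calls against untagged cells ran from 6931 to 7982 in Trim71KO. In Ago2KO they ran from 3560 (without untagged IP replicate 3) to 4737.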

How the data were processed

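Libraries were grouped by title and experiment. The authors deposited raw read counts per gene, per the file headers; the labels name a stranded total RNA kit, while counting rules for strand, overlaps and near copies are not given in the sources used here. Per the submitters' processing notes STAR 2.7.3a and bcl2fastq 2.20 were used with GRCm38 (mm10). The authors also deposited RPKM values and a gene length column, per the file headers (RPKM implied library sizes 0.876 to 1.08 times the total count and served as a check only). Coordinates and biotypes come from RefSeq on GRCm38.p6, matched for 16282 of 19866 rows.

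Here counts were fitted with edgeR 4.0.16 in R 4.3.3 (TMM, filterByExpr, quasi-likelihood F test, 1 mean per group) over the 12 libraries; ratios to untagged cells came from a fit of 18. SE is the log2 value divided by the square root of F. The scripts were tested on simulated data. Replicate pairs differed by more than sampling noise (chi-square per gene 3.01 to 34.0 in the knockout groups). In untagged cells it was 3.72 to 5.93 between input libraries and 13.9 to 49.8 between IP libraries, the latter for replicates 1 and 2. Intervals ignore duplicate molecules, since no molecular identifiers are stated. Lists were written from general knowledge, with earlier results of these data known.

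The members and lists were chosen with earlier results of these data known. Named genes are the targeted genes, list members called (all members of the Trim71, miR-290, GW182, Bcl2 and clathrin lists), the largest differences (at most 12 per direction), and smaller sets by their IP and input calls. These had to be called, reach a mean log2 CPM of 2, have no group at 3 counts or fewer in all libraries, and have the 9 IP minus input values of one knockout all above the 9 of the other, which 10.9% of genes met in one direction and 3.27% in the other. Alternatives were DESeq2 1.42.0, RLE factors, library size alone, no filter, 8 groups in the fit, a replicate block and leaving out each library. Seed matches in 3′ UTRs were not analysed here, and some genes counted in the lists are not reported here by name.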

Additional observations from a re-analysis of the deposited data

Results flagged for a closer look

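For some genes the difference between the knockouts had opposite signs in the IP and in the input, both called, and the association difference (log2) is the test of that contrast. Lower in the IP and higher in the input of Trim71KO were Ier5 (-2.26), St3gal4 (-1.80), Pank3 (-1.39), Herpud1 (-1.38) and Pip5k1a (-1.35). Higher in the IP and lower in the input of Trim71KO were Bcl2l11 (2.08), Nanos1 (2.04), Tmem50b (1.99), Zfp385a (1.96) and Wiz (1.93). Their IP differences were -0.59, -0.85, -0.79, -0.89 and -0.88 in the first set and 0.88, 0.78, 1.36, 1.52 and 1.66 in the second, on the log2 scale. Each set holds the 5 largest such differences among genes that met the naming criteria given above. Before those criteria, 19 genes that were lower and 291 that were higher had opposite calls in both fractions.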

How the results depend on the processing

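The direction held for every named gene that was called, under each of 7 other settings and with each of 12 libraries left out. Of the 124 called, 97 kept their call in all of these fits and 27 lost it in at least 1. The count of lower calls moved most, from 282 to 566 with all 8 groups in the fit, 654 with library size alone, 443 without the filter on low counts and 462 with DESeq2. The count of higher calls was 1768, 1370, 1517 and 1824 there. With RLE factors 1666 genes were higher and 360 lower. The share of higher calls was 77.4% without the filter and 79.8% with DESeq2. Leaving out 1 library gave 1445 (without Trim71KO input replicate 2) to 2869 (without Ago2KO IP replicate 1) calls, 1219 to 2384 higher, 141 (without Ago2KO input replicate 2) to 577 (without Trim71KO input replicate 3) lower and 227 to 459 at least 2-fold. Counts of lower calls were 180 and 160 without Ago2KO input replicates 1 and 3, 425 without Trim71KO IP replicate 1, and 185 and 485 when Ago2KO IP replicate 2 or 1 was left out. The cause of these changes was not tested. Of the 282 lower calls, 273 were called lower with 8 groups and 282 with library size alone. Of the 1845 higher calls, 1712 and 1369 were called higher. IP calls ran from 5910 to 7255 and input calls from 3950 to 5890 with a library left out.

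Replicate numbers did not meet the criterion for pairing, a correlation of at least 0.1 for every number. Within a fraction only number 2 fell below it. Between the knockouts the correlations of same-numbered deviations were 0.22, 0.03 and 0.20 in input and 0.25, 0.07 and 0.19 in IP. Between input and IP they were 0.08, 0.09 and 0.28 in Trim71KO and 0.12, 0.03 and 0.22 in Ago2KO. Within each fraction every library correlated best with its own number in the other knockout. A replicate block within fraction gave 2157 higher and 391 lower calls, and a replicate block within knockout gave 458 lower calls. With the replicate block Plxnb2, Egr1 and Bmf gained a call within knockout, Bmf also within fraction, and Taok3 lost its call within knockout. List medians moved by more than the spread between replicates in 15 of 513 values, over 9 of 27 lists. Of the 2127 calls, 2028 had a mean log2 CPM of at least 2, as did 12825 of the 19175 genes tested. The part of depth in this was not tested.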
